A study of Caenorhabditis elegans with 16 samples.

Results

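The abu and pqn genes of Caenorhabditis elegans encode proteins rich in glutamine and asparagine, and they were followed here in whole worms fed bacteria for RNA interference (RNAi) against atp-2. The members are all genes whose name is abu or pqn followed by a number and whose type is given as protein-coding in the deposited tables. They number 76, with 14 abu genes and 62 pqn genes, of 46904 genes listed, 20191 of them protein-coding. The rule rests on names and uses no measured value, though it was chosen with earlier results of these data known. Worms were of the wild-type strain N2 and grew on HT115, an Escherichia coli strain used for RNAi by feeding, which carried an empty vector (control) or a construct expressing atp-2 double-stranded RNA. The study looked for genes of the nervous system that matter when worms learn to avoid a stress, which it provoked by knocking down atp-2. At 0 hr and at 20 hr there were 3 control libraries and 2 atp-2 RNAi libraries (replicates 2 and 3 of the labels). At 24 hr and at 36 hr there was 1 library of each kind, and a control taken at 48 hr stood against worms given atp-2 RNAi and taken at 54 hr. Neither the stage or age of the worms nor the event from which hours were counted is given in the labels. The worms are intact animals in which every tissue contributes RNA, and fewer cells of a type cannot be told apart from less RNA per cell in such samples.

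The name abu stands for "activated in blocked unfolded protein response": several of these genes were found as induced in worms that cannot mount the usual response to unfolded proteins in the endoplasmic reticulum. The name pqn stands for prion-like, glutamine- and asparagine-rich domain, and it was given by sequence to proteins with otherwise unlike functions. A group of abu and pqn paralogs is known to be expressed in the pharynx, the feeding organ, with transcripts that rise and fall with each molt, when the worm makes a fresh cuticle. Loss of abu-14 is known to disturb the pharyngeal cuticle and feeding. Other pqn genes are unrelated to the cuticle, such as pqn-59 (related to human UBAP2L, a stress granule protein), pqn-85 (scc-2 in the current annotation, a loader of the cohesin complex) and pqn-41 (needed for the death of the male linker cell).

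Values are TPM, each gene's share of its library corrected for transcript length, so levels of different genes can be set side by side. They keep no record of read number, so depth is unknown here and no detection limit can be given. The target atp-2, which encodes the mitochondrial ATP synthase's beta subunit, stood at 1995 ± 157 TPM (SD, n = 3) in controls and 123 ± 18.5 TPM (n = 2) under RNAi at 0 hr, and at 1724 ± 290 TPM (n = 3) and 184 ± 17.9 TPM (n = 2) at 20 hr. In the late libraries it was 2225 TPM against 1043 TPM at 24 hr, 2578 TPM against 736 TPM at 36 hr, and 2607 TPM in the 48 hr control against 431 TPM at 54 hr of RNAi. Taken across genes as log2(TPM + 1), Pearson's r between RNAi and control libraries was 0.549 to 0.612 when both were of 0 hr, and 0.925 to 0.940 when RNAi of 0 hr was set against the later controls (24 and 36 hr). Control replicate 1 of 20 hr was set against its group's other controls, for genes averaging 1 TPM or more across these 3 libraries. It stood at least 2-fold from both others for 4 of 33 members, or 12.1%, against 2.48% of all such genes. The 4 were pqn-41, pqn-59, pqn-65 and pqn-82. Without control replicate 1, the counts of members called at 20 hr were 25 higher and 13 lower. Whether replicates were separate cultures is not given in the labels, and the p-values rest on the spread between these libraries alone, which may be technical.

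Of the 76 members, 66 reached 1 TPM in at least 1 library, among them 12 of the 14 abu genes. The 10 that never did were abu-2, abu-5, pqn-10, pqn-16, pqn-71, pqn-73, pqn-76, pqn-78, pqn-79 and pqn-84, and abu-5 was listed at 0 in all 16 libraries. By contrast, 28 members lay above 1 TPM in every library and 20 of these at 10 TPM or more, all of them pqn genes. Summed over the 62 pqn genes, the level stayed between 1922 and 3002 TPM per library. Summed over the 14 abu genes, it ranged from 1.07 TPM in a 20 hr control to 705 TPM in the 48 hr control.

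The 6 members with the highest mean over all libraries were pqn-59, pqn-52, pqn-83, pqn-53, pqn-70 and pqn-87. The highest of them, pqn-59, stood at 299 to 447 TPM in 14 of the 16 libraries and at 987 and 1109 TPM in control replicates 2 and 3 of 20 hr. A steadier level was that of pqn-53, which lay between 102 TPM in the 48 hr control and 184 TPM in the 24 hr RNAi library. Between 118 and 231 TPM, pqn-83 was similarly even across the series. At 0 hr pqn-87 stood at 69.1, 54.7 and 62.0 TPM in controls and at 160.3 and 144 TPM under RNAi (log2 change 1.28, SE 0.14, adjusted p = 8.05e-05 by limma), and at 20 hr its groups overlapped. In contrast, pqn-32 spanned 0.0601 to 382 TPM and was among the lowest members in some libraries and among the highest in others.

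**Figure D1:**
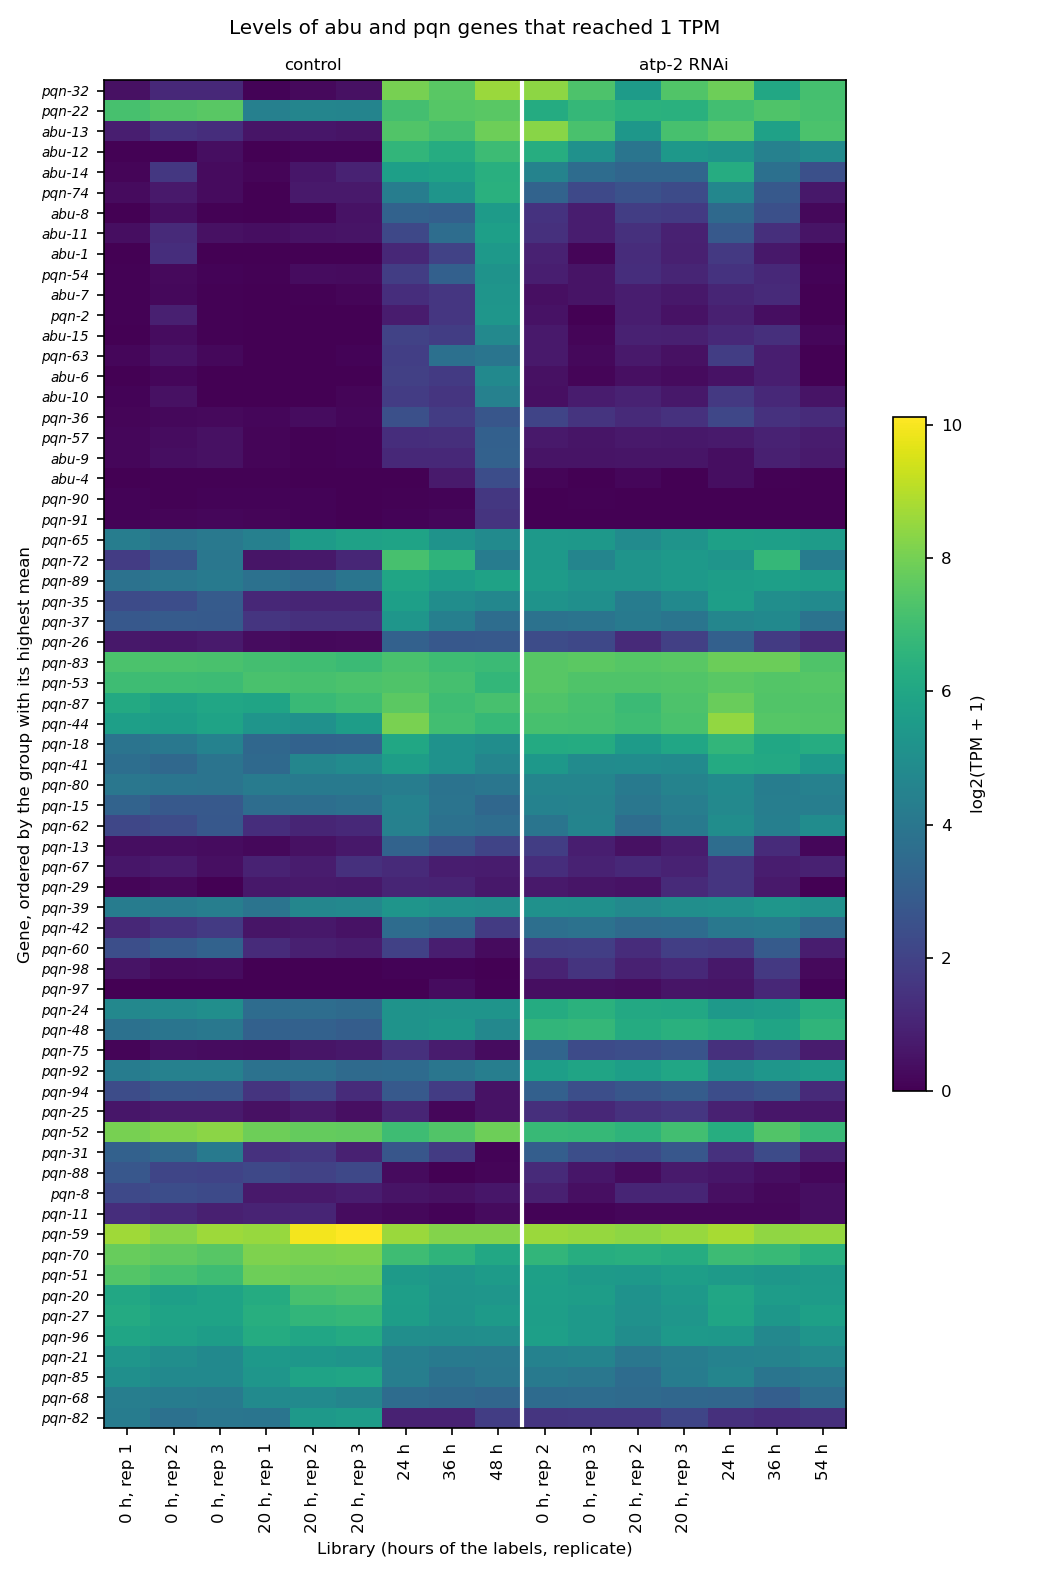
Level of each of the 66 members that reached 1 TPM, as log2(TPM + 1) in colour, with 1 row per gene and 1 column per library (controls left of the white line, atp-2 RNAi right of it). The abu genes lie in the uppermost block, whose highest group mean is the 48 hr control, and are dark in the 6 controls of 0 and 20 hr. The lowest block holds the 10 pqn genes that were highest in the 20 hr controls.

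Positions are those of the deposited tables on the build WBcel235. There, 15 members lay within 10 kb of another member, in 6 clusters. A cluster on chromosome V (5158623 to 5194608) held abu-15, abu-6, abu-7 and abu-8. In the tables the locus of abu-8 is 31340 bases long and contains all of abu-7 on the same strand, so reads of these genes could be split between them and their values are uncertain. Farther along chromosome V, abu-1 (10380340 to 10381826, minus strand) and pqn-2 (10382442 to 10384063, plus strand) lay 615 bases apart and pointed away from each other. On chromosome X, pqn-57 and abu-9 were 1124 bases apart, also in opposite directions. The near-silent genes abu-5, pqn-78 and pqn-79 formed a cluster on chromosome IV (15590697 to 15596645), and they and the nearby pqn-76 had loci of the same length, 1076 bases. Close paralogs can share reads, and the labels and tables do not say how the counting split such reads. The other named loci overlap no coding gene on their own strand, apart from pqn-51 (with K11D12.14) and pqn-59 (with R119.3). In a later Ensembl annotation of the same build, pqn-11 is a pseudogene, pqn-44 is named tent-5 (a poly(A) polymerase) and pqn-85 is named scc-2. There pqn-60, pqn-97 and pqn-98 are named srlf-35, srlf-36 and srlf-37.

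All 12 abu genes that reached 1 TPM had their highest group level in the 48 hr control, where 11.02% of all genes that reached 1 TPM had theirs. Of these, 9 stood there at least 2-fold above each of the other 15 libraries, as did 15 members in all, against 1.45% of all genes. As the 48 hr control is a single library, these are levels without a replicate. The gene abu-7 stood at 37.3 TPM there and at 2.01 TPM or less in every other library. Its cluster neighbour abu-6 stood at 27.02 TPM in the 48 hr control against 2.81 TPM or less elsewhere. The distant abu-1 stood at 43.3 TPM against 2.99 TPM or less elsewhere, 14.5-fold above the next library. While abu-6 and abu-7 are neighbours and abu-1 lies farther along the chromosome, all 3 were highest in the same library. For abu-11, the values were 51.3 TPM in the 48 hr control, 11.3 TPM in the 36 hr control and 6.01 TPM or less elsewhere. For abu-10, they were 21.0 TPM and 2.52 TPM or less. The smallest of the group, abu-4, reached 4.21 TPM in the 48 hr control and 0.672 TPM in the 36 hr control, and was listed at 0 or below 0.31 TPM elsewhere.

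The remaining 3 abu genes, abu-12, abu-13 and abu-14, were abundant in a wider set of libraries. On chromosome III (6941889 to 6945895), abu-13 stood at 163, 136 and 236 TPM in the controls of 24, 36 and 48 hr and at 181, 54.04 and 150 TPM in the RNAi libraries of 24, 36 and 54 hr. Its highest single value, 317 TPM, came from replicate 2 of RNAi at 0 hr. On chromosome X (450446 to 457648), abu-12 stood at 98.9, 75.2 and 121 TPM in the late controls and at 36.9, 21.0 and 28.7 TPM in the late RNAi libraries. On chromosome II (9225186 to 9227261), abu-14, which is needed for a normal pharyngeal cuticle, stood at 50.99, 56.6 and 83.0 TPM in the late controls and at 76.4, 12.4 and 4.52 TPM in the late RNAi libraries. These 3 genes made up 87.1% to 99.0% of the summed abu level in the RNAi libraries, 93.0% and 89.2% in the controls of 24 and 36 hr, and 62.4% in the 48 hr control. The other 11 abu genes together stood at 265 TPM in the 48 hr control, at 32.3 TPM or less in every other library and at 1.85 TPM in the RNAi library of 54 hr.

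**Figure D2:**
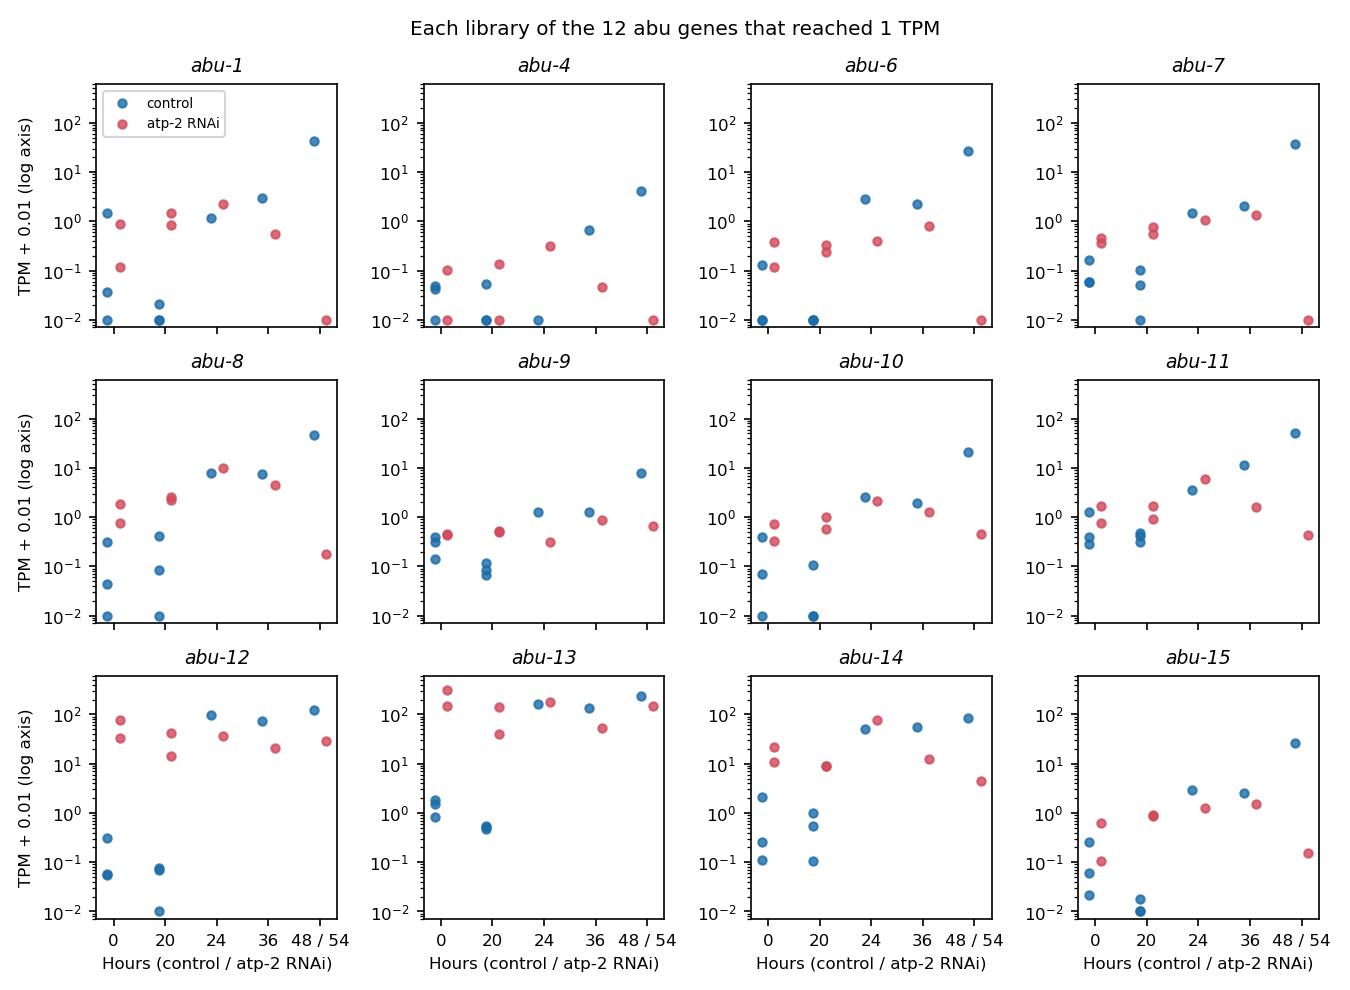
TPM + 0.01 on a log axis for the 12 abu genes that reached 1 TPM, by the hours of the labels, with 1 point per library (blue, control, red, atp-2 RNAi). Points at 0.01 are listed at 0. In 9 panels the 48 hr control stands alone at the top, while abu-12, abu-13 and abu-14 are high in RNAi libraries of 0 and 20 hr as well.

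At 0 hr and at 20 hr the comparison asks which transcripts differed between atp-2 RNAi and control worms. It was tested by limma on log2(TPM + 1) among genes whose mean reached 1 TPM, with Benjamini-Hochberg adjustment over all of them and a threshold of 0.05. At 0 hr, 44 of the 76 members passed this filter, and 27 were higher and 13 lower under RNAi, where 43.7% of all 14094 genes tested were higher and 39.6% lower. At 20 hr, 44 members were tested, and 25 were higher and 12 lower, where 47.7% of all 12916 genes were higher and 40.7% lower. With 83.3% and 88.3% of all genes called, a call by itself sets no member apart, and the members' share of calls was 90.9% and 84.1%. The median log2 change of the tested members was 1.15 at 0 hr and 0.81 at 20 hr, against 0.13 and 0.31 for all genes tested, and relative to these it was 1.02 and 0.50. A member passes the filter more readily where RNAi raised it, so these medians do not speak for all 76. Of the members tested at both times, 19 were higher at both, 9 lower at both and 3 were called in opposite directions. The shares of all genes with these patterns were not computed, so the counts are descriptive only.

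Of the 14 abu genes, 3 were tested at 0 hr and 4 at 20 hr, and those tested were called higher under RNAi. Except for abu-13 at 0 hr, their control means lay below 1 TPM, so they passed the filter through the RNAi libraries and the shared direction is largely set by the filter. For abu-13 at 0 hr, the controls stood at 0.822, 1.82 and 1.49 TPM and the RNAi libraries at 317 and 149 TPM. Both RNAi values were far above all controls, and the log2 change was 6.55 (SE 0.33, adjusted p = 2.37e-06 by limma). At 20 hr the controls stood at 0.506, 0.530 and 0.461 TPM and the RNAi libraries at 39.5 and 142 TPM, with a log2 change of 5.67 (SE 0.46, adjusted p = 1.29e-05 by limma). The groups again lay wide apart, although the RNAi libraries of 20 hr differed from each other by more than the controls did. Levels of abu-12 were 0.0459, 0.0473 and 0.306 TPM in the 0 hr controls and 77.2 and 33.95 TPM under RNAi, a log2 change of 5.54 (SE 0.34, adjusted p = 4.83e-06 by limma). At 20 hr abu-12 was listed at 0 in control replicate 1 and stood at 0.0578 and 0.0664 TPM in the other controls, against 14.1 and 41.3 TPM under RNAi, a log2 change of 4.60 (SE 0.39, adjusted p = 1.56e-05 by limma). Here too no RNAi value came near a control.

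For abu-14 at 0 hr, the controls stood at 0.102, 2.08 and 0.241 TPM and the RNAi libraries at 22.1 and 10.8 TPM, a log2 change of 3.36 (SE 0.48, adjusted p = 0.000321 by limma). Control replicate 2 was the highest of the controls, as it was for most abu genes at 0 hr, and still lay below both RNAi libraries. At 20 hr abu-14 stood at 0.0972, 0.528 and 0.967 TPM in controls and at 8.79 and 8.97 TPM under RNAi, a log2 change of 2.73 (SE 0.26, adjusted p = 2.69e-05 by limma). The gene abu-8 passed the filter at 20 hr alone, with a control listed at 0, the others at 0.0736 and 0.397 TPM, and RNAi libraries at 2.53 and 2.27 TPM. Its log2 change was 1.57 (SE 0.20, adjusted p = 0.000137 by limma), and it fell to 0.68 and lost its call (adjusted p = 0.0954) after quantile normalization. Below the filter at 0 hr lay 11 abu genes, 3 of them higher in both RNAi libraries than in every control. At 20 hr there were 10, with 7 of them higher in both RNAi libraries than in every control but none above 1.67 TPM in a library of that time. The share of all genes below the filter that did so was not computed, so these counts do not set the abu genes apart.

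In the late pair the 54 hr RNAi library was set against the 48 hr control. There is 1 library on each side, so there is no replicate check, and the hours differ. Genes are counted where log2(TPM + 1) differed by at least 1, which is 2-fold on that scale. Of 12 abu genes whose mean reached 1 TPM, 11 were at least 2-fold lower at 54 hr of RNAi and none was higher, where 14.9% of all 13473 genes were lower and 17.8% higher. As these genes had been seen to be highest in the 48 hr control, and 9 of them were below 1 TPM at 54 hr of RNAi and so entered through that control, the count restates that level and supports nothing further. Only abu-13 stayed within 2-fold, at 150 TPM against 236 TPM.

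Among the abu genes of this pair, abu-1 was listed at 0 under RNAi against 43.3 TPM in the control. Also listed at 0 under RNAi were abu-7 against 37.3 TPM, abu-6 against 27.02 TPM and abu-4 against 4.21 TPM. The level of abu-8 was 0.170 TPM against 46.2 TPM, 273-fold lower, and that of abu-11 was 0.430 TPM against 51.3 TPM, 119-fold lower. The level of abu-9 was 11.7-fold lower, and among the 3 widely expressed genes abu-14 was 18.4-fold, abu-12 4.21-fold and abu-13 1.58-fold lower. The 9 genes that stood apart in the 48 hr control lay at 0.664 TPM or less in the 54 hr RNAi library.

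**Figure D3:**
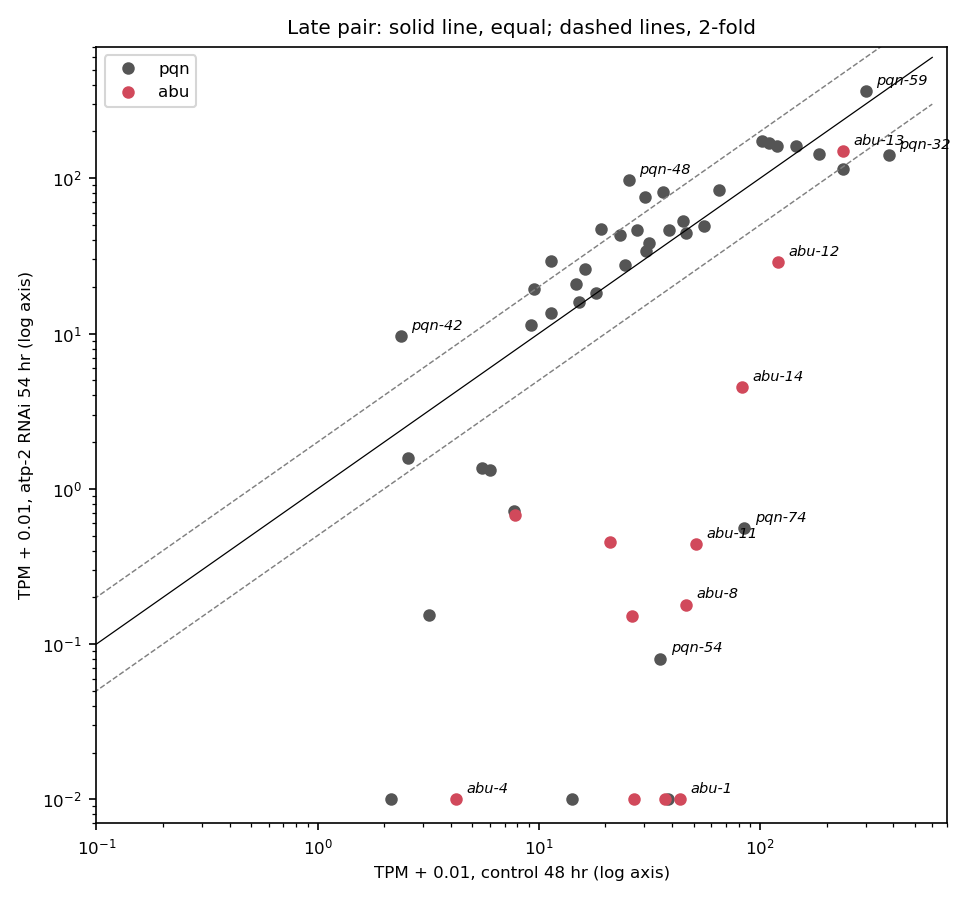
Each member whose mean reached 1 TPM in the late pair, as TPM + 0.01 on log axes (x, 48 hr control, y, atp-2 RNAi at 54 hr), with abu genes in red and pqn genes in grey. The solid line marks equal values and the dashed lines a 2-fold difference in TPM. All abu genes except abu-13 lie below the lower dashed line, with abu-1, abu-4, abu-6 and abu-7 at the lower edge, where the RNAi value is listed at 0.

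A set of 10 pqn genes shared the 48 hr control as their highest group with the abu genes, namely pqn-2, pqn-22, pqn-32, pqn-36, pqn-54, pqn-57, pqn-63, pqn-74, pqn-90 and pqn-91. Of these, pqn-2, the divergent neighbour of abu-1, stood at 38.4 TPM in the 48 hr control, at 2.01 TPM or less in the other libraries, and was listed at 0 at 54 hr of RNAi. The pqn-57 neighbour of abu-9 stood at 7.67 TPM in the 48 hr control beside 7.75 TPM for abu-9, and at 0.708 TPM beside 0.664 TPM at 54 hr of RNAi. Both members of each of these pairs were thus at like levels in those libraries. Whether reads shared between paralogs had a part in this likeness was not tested. For pqn-54 the late pair was 35.4 TPM against 0.0705 TPM, 503-fold lower under RNAi. For pqn-74 it was 84.8 TPM against 0.550 TPM, 154-fold lower. Of the 41 pqn genes counted in this pair, 11 were lower by at least 2-fold and 6 higher, where 14.9% of all 13473 genes were lower and 17.8% higher. The lower genes that belong to the set of 10 had been picked by their level in the 48 hr control, which favours that direction.

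Among these pqn genes, pqn-32 (chromosome II, 13108019 to 13110169) was also low in the early controls and high elsewhere, as abu-12 and abu-13 were, and on the log2(TPM + 1) scale it rose the most of the members tested at both replicated times. By the ratio of mean TPM abu-12 rose more, 418-fold at 0 hr and 669-fold at 20 hr against 262-fold and 502-fold for pqn-32. At 0 hr its controls stood at 0.352, 1.23 and 1.22 TPM and its RNAi libraries at 334 and 156 TPM. The log2 change was 6.93 (SE 0.36, adjusted p = 2.51e-06 by limma). At 20 hr the controls stood at 0.0601, 0.180 and 0.383 TPM and the RNAi libraries at 45.6 and 163 TPM, a log2 change of 6.18 (SE 0.47, adjusted p = 9.06e-06 by limma). As with abu-13, replicate 2 was the higher RNAi library at 0 hr and replicate 3 at 20 hr. In the late controls of 24, 36 and 48 hr pqn-32 stood at 262, 184 and 382 TPM, and in the RNAi libraries of 24, 36 and 54 hr at 234, 66.6 and 141 TPM. At 0 hr pqn-74 stood at 0.225, 0.616 and 0.216 TPM in controls and at 8.22 and 3.69 TPM under RNAi, a log2 change of 2.29 (SE 0.31, adjusted p = 0.000249 by limma). At 20 hr its log2 change was 1.97 (SE 0.26, adjusted p = 0.000164 by limma), or 0.94 with adjusted p = 0.0832 after quantile normalization. Control means of pqn-32 and pqn-74 lay below 1 TPM at 0 and 20 hr, so both passed the filter through the RNAi libraries. Their direction at those times is thus largely set by the filter. Both genes were higher under RNAi at 0 and 20 hr and at least 2-fold lower under RNAi in the late pair. Of the members called higher at 0 hr, 6 were lower in that pair, and of those called higher at 20 hr, 5 were. The share of all genes with this pattern was not computed, so these counts do not set the members apart.

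Other pqn genes rose under RNAi and also stood higher in the late RNAi library. For pqn-48 at 0 hr, the controls stood at 12.6, 14.4 and 15.5 TPM and the RNAi libraries at 100.8 and 106 TPM, a log2 change of 2.79 (SE 0.14, adjusted p = 2.53e-06 by limma). At 20 hr it stood at 7.82, 7.75 and 6.87 TPM in controls and at 73.1 and 84.0 TPM under RNAi, a log2 change of 3.23 (SE 0.15, adjusted p = 1.45e-06 by limma). Replicates of pqn-48 were close together and the groups far apart at both times. It was also 2.09-fold higher under RNAi at 24 hr and 3.81-fold higher at 54 hr than in the 48 hr control. For pqn-42 the 20 hr controls stood at 0.472, 0.586 and 0.398 TPM and the RNAi libraries at 10.1 and 10.6 TPM, a log2 change of 2.94 (SE 0.17, adjusted p = 2.66e-06 by limma), and it was 4.04-fold higher in the late pair. As its 20 hr controls lay below 1 TPM, it passed the filter at that time through the RNAi libraries. For pqn-92 the RNAi library was 2.998-fold, 2.62-fold and 2.45-fold higher in the 24 hr, 36 hr and late pairs, and the log2 changes were 1.42 at 0 hr (SE 0.15, adjusted p = 7.29e-05 by limma) and 2.13 at 20 hr (SE 0.18, adjusted p = 1.36e-05 by limma). It was past 2-fold in all 3 unreplicated pairs. The late pair also showed pqn-62 at 29.3 TPM against 11.3 TPM, pqn-18 at 75.3 TPM against 30.1 TPM and pqn-24 at 81.0 TPM against 36.2 TPM.

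At 0 hr pqn-35 stood at 3.94, 4.18 and 6.46 TPM in controls and at 35.7 and 31.7 TPM under RNAi, a log2 change of 2.59 (SE 0.22, adjusted p = 2.37e-05 by limma), and its log2 change at 20 hr was 3.45 (SE 0.21, adjusted p = 3.4e-06 by limma). Its 24 hr and 36 hr pairs were nearly equal, at 50.7 against 49.7 TPM and 29.8 against 30.6 TPM, control first. The pharyngeal gland gene pqn-75 stood at 0.104, 0.297 and 0.277 TPM in the 0 hr controls and at 8.90 and 3.94 TPM under RNAi, a log2 change of 2.52 (SE 0.30, adjusted p = 0.00013 by limma). It stayed at 2.33 TPM or less in all late libraries, so its highest levels were those of the RNAi libraries of 0 and 20 hr. At 20 hr its log2 change was 2.03 (SE 0.19, adjusted p = 2.47e-05 by limma). Control means of pqn-75 lay below 1 TPM at 0 and 20 hr, so it passed the filter through the RNAi libraries. Better known members also rose: pqn-44 (tent-5) stood at 51.2, 48.2 and 57.5 TPM in the 0 hr controls and at 142 and 140 TPM under RNAi. Its log2 changes were 1.42 at 0 hr (SE 0.13, adjusted p = 3e-05 by limma) and 1.74 at 20 hr (SE 0.18, adjusted p = 4.85e-05 by limma). For pqn-41, the linker cell death gene, the log2 change was 1.48 at 0 hr (SE 0.22, adjusted p = 0.000413 by limma) and 0.56 at 20 hr (SE 0.39, adjusted p = 0.21 by limma), where control replicate 1 stood at 9.86 TPM and the other controls at 23.8 and 28.4 TPM.

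The pqn genes that fell under RNAi included the group that was highest in the 20 hr controls, namely pqn-20, pqn-21, pqn-27, pqn-51, pqn-59, pqn-68, pqn-70, pqn-82, pqn-85 and pqn-96. All 10 were called lower at 20 hr, a direction that follows from choosing them by their level in those controls. The largest fall was that of pqn-82. At 0 hr its controls stood at 17.8, 12.5 and 14.7 TPM and its RNAi libraries at 1.96 and 2.04 TPM, 7.51-fold lower, with a log2 change of -2.40 (SE 0.20, adjusted p = 2e-05 by limma). At 20 hr its controls stood at 14.3, 42.4 and 47.3 TPM and its RNAi libraries at 2.06 and 3.32 TPM, with a log2 change of -3.13 (SE 0.48, adjusted p = 0.000411 by limma), or -3.65 without control replicate 1. In the late libraries of either kind pqn-82 stood between 0.945 and 2.55 TPM, as low as in the early RNAi libraries. A similar profile was that of pqn-51, with 238, 221 and 217 TPM in the 20 hr controls, 43.6 and 50.6 TPM under RNAi, and 38.6 to 46.0 TPM in all late libraries. Its log2 changes were -1.56 at 0 hr (SE 0.16, adjusted p = 5.97e-05 by limma) and -2.24 at 20 hr (SE 0.13, adjusted p = 2.74e-06 by limma).

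Levels of pqn-70 were 288, 266 and 278 TPM in the 20 hr controls and 82.7 and 76.7 TPM under RNAi, a log2 change of -1.79 (SE 0.12, adjusted p = 4.54e-06 by limma), after -1.15 at 0 hr (SE 0.15, adjusted p = 0.000218 by limma). The cohesin loader gene pqn-85 (scc-2) stood at 38.6, 57.6 and 60.2 TPM in the 20 hr controls and at 10.95 and 17.8 TPM under RNAi, a log2 change of -1.80 (SE 0.26, adjusted p = 0.000317 by limma). The groups did not overlap in either gene. The log2 change of pqn-68, described in the tables as a D-aminoacyl-tRNA deacylase, was -1.33 at 20 hr (SE 0.16, adjusted p = 9.69e-05 by limma). That of pqn-52 was -1.40 at 0 hr (SE 0.13, adjusted p = 3.25e-05 by limma), with 262, 295 and 324 TPM in controls and 112 and 109 TPM under RNAi, and -0.96 at 20 hr (SE 0.17, adjusted p = 0.000828 by limma). The low-level gene pqn-88 stood at 5.67, 3.33 and 3.15 TPM in the 0 hr controls and at 1.31 and 0.513 TPM under RNAi, a log2 change of -1.40 (SE 0.29, adjusted p = 0.00242 by limma), and fell by 1.61 at 20 hr (SE 0.20, adjusted p = 0.000117 by limma). At 0 hr its RNAi libraries averaged below 1 TPM, so it passed the filter at that time through the controls.

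The stress granule gene pqn-59 was called lower at 20 hr, with a log2 change of -1.07 (SE 0.42, adjusted p = 0.0429 by limma), and the call rests on a narrow margin. Its controls stood at 378, 987 and 1109 TPM and its RNAi libraries at 339 and 370 TPM, so replicate 1 was near the RNAi libraries and the other controls far above them. Without control replicate 1 the log2 change was -1.56 (adjusted p = 0.000144 by limma). Without control replicate 2 it was -0.87 (adjusted p = 0.0828 by limma) and without control replicate 3 it was -0.78 (adjusted p = 0.119 by limma). Leaving out RNAi replicate 2 or 3 also ended the call (adjusted p = 0.213 by limma and 0.138). At 0 hr pqn-59 stood at 403, 309 and 391 TPM in controls and at 385 and 363 TPM under RNAi, with overlapping groups.

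Markers of germline and oocyte, listed by name, were lower at 0 hr and 20 hr beside the members that fell. All 13 were lower under RNAi at both times, with a median log2 change of -5.91 at 0 hr and -5.29 at 20 hr. Their summed level was 4424 to 5825 TPM in the 0 hr controls, 6494 to 8292 TPM in the 20 hr controls, 56.5 to 195 TPM in the RNAi libraries of both times and 16.4 to 360 TPM in the late libraries. None of the 13 was listed at 0 in the early libraries, and at most 1 was in a late library. In the late pair all 13 were again at least 2-fold lower, with a median log2 ratio of -2.81. There the log2 ratios of the 10 pqn genes highest in the 20 hr controls lay between -0.47 (pqn-82) and 0.64 (pqn-21). Another member that fell, pqn-52, was at -1.03. The part of the germline and oocyte markers in the members' changes was not tested.

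Whether the change under RNAi differed between the times was tested as the interaction of treatment and time in a fit of the 10 libraries. Among 43 members tested, 9 changed upward and 10 downward from 0 hr to 20 hr, where 21.1% and 21.9% of all 13679 genes did. Among the 9 was pqn-22, which stood at 142, 169 and 182 TPM in the 0 hr controls and at 74.6 and 106 TPM under RNAi, a log2 change of -0.87 (SE 0.18, adjusted p = 0.00254 by limma). At 20 hr it stood at 20.1, 23.2 and 22.4 TPM in controls and at 87.5 and 85.4 TPM under RNAi, a log2 change of 1.94 (SE 0.14, adjusted p = 6.23e-06 by limma). The interaction was 2.81 (SE 0.23, adjusted p = 2.61e-05 by limma), and the controls differed more between the times than the RNAi libraries did. The other members called in opposite directions were low in level. For pqn-31 the 0 hr controls stood at 7.86, 9.65 and 16.3 TPM and the RNAi libraries at 7.16 and 4.45 TPM, and the 20 hr controls at 1.74, 2.10 and 0.929 TPM and the RNAi libraries at 3.81 and 5.65 TPM. For pqn-60 the values were 4.42, 6.29 and 8.07 TPM against 2.53 and 2.70 TPM at 0 hr, and 1.34, 0.844 and 0.708 TPM against 1.43 and 2.72 TPM at 20 hr, control first. The RNAi libraries lay below all controls at 0 hr and above all controls at 20 hr in both genes. The log2 changes of pqn-31 were -0.82 at 0 hr (SE 0.32, adjusted p = 0.0412 by limma) and 1.16 at 20 hr (SE 0.26, adjusted p = 0.00345 by limma), and those of pqn-60 were -0.97 at 0 hr (SE 0.25, adjusted p = 0.00681 by limma) and 0.63 at 20 hr (SE 0.24, adjusted p = 0.0408 by limma). These opposite calls were fragile. After quantile normalization the changes at 20 hr turned to -0.01 for pqn-31 and -0.48 for pqn-60. The call of pqn-31 at 0 hr ended with no filter (adjusted p = 0.122 by limma) and without control replicate 2 or 3 or RNAi replicate 2 or 3, with values from -1.11 to -0.53. That of pqn-60 at 20 hr ended with a pseudocount of 0.1 or 0.01, with no filter, and without control replicate 2 or 3 or RNAi replicate 3, where it was lowest at 0.32 (adjusted p = 0.202 by limma), and at 0 hr it ended without RNAi replicate 2 (adjusted p = 0.0522 by limma).

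For pqn-72 the log2 change was 2.2 at 0 hr (SE 0.59, adjusted p = 0.00863 by limma) and 4.58 at 20 hr (SE 0.21, adjusted p = 1.28e-06 by limma), with an interaction of 2.39 (SE 0.73, adjusted p = 0.0249 by limma). Its 0 hr controls were spread over 2.45, 5.14 and 15.2 TPM, and without RNAi replicate 2 the change at 0 hr was 1.78 (adjusted p = 0.0918 by limma). At 20 hr its controls stood at 0.486, 0.580 and 1.10 TPM and its RNAi libraries at 37.2 and 42.6 TPM, with no overlap. The mean of these controls was 0.723 TPM, so pqn-72 passed the filter at 20 hr through the RNAi libraries. The 0 hr controls held pqn-8 at 3.69, 4.20 and 3.80 TPM, and no other library exceeded 1.07 TPM. Its change at 0 hr was -1.64 (SE 0.21, adjusted p = 0.000182 by limma), and it lay below the filter at 20 hr. Its RNAi mean at 0 hr was 0.589 TPM, so it passed the filter at that time through the controls. In the other direction, pqn-65 rose at 0 hr, with 18.8, 13.8 and 15.9 TPM in controls, 42.8 and 40.6 TPM under RNAi and a log2 change of 1.32 (SE 0.17, adjusted p = 0.00017 by limma). At 20 hr its controls stood at 20.4, 46.4 and 53.7 TPM and its RNAi libraries at 28.1 and 37.02 TPM, a log2 change of -0.20 (SE 0.38, adjusted p = 0.637 by limma), or -0.62 (adjusted p = 0.0216 by limma) without control replicate 1. The RNAi libraries lay within the range of those controls. For pqn-20 the change was -0.21 at 0 hr (SE 0.15, adjusted p = 0.216 by limma) and -1.57 at 20 hr (SE 0.31, adjusted p = 0.00179 by limma), with an interaction of -1.36 (SE 0.38, adjusted p = 0.0187 by limma). After quantile normalization both calls ended, with -0.83 at 20 hr (adjusted p = 0.0945 by limma) and an interaction of -0.95 (adjusted p = 0.123 by limma). For pqn-27 the 20 hr controls stood at 80.7, 101.2 and 104.4 TPM and the RNAi libraries at 33.9 and 38.9 TPM, a log2 change of -1.36 (SE 0.16, adjusted p = 9.15e-05 by limma), after -0.40 at 0 hr (SE 0.16, adjusted p = 0.0418 by limma). The call at 0 hr ended after quantile normalization (-0.07), with no filter, with the replicate block (-0.29), with no intensity trend, and without control replicate 1 or 2 or either RNAi library, and is not firm. For pqn-15 the controls stood at 8.43, 6.12 and 6.19 TPM and the RNAi libraries at 21.3 and 22.04 TPM at 0 hr, a log2 change of 1.53 (SE 0.19, adjusted p = 0.00015 by limma), after which it was 0.50 at 20 hr (SE 0.17, adjusted p = 0.0251 by limma). The call of pqn-15 at 20 hr ended with the replicate block (0.46), without RNAi replicate 3 (0.34) and without control replicate 1 or 2, and is not firm. The groups of pqn-27 and pqn-15 did not overlap at these times. None of the 3 abu genes tested had an interaction past the threshold, and theirs lay between -0.94 and -0.63 (SE 0.58 to 0.66, limma adjusted p from 0.21 to 0.428), which leaves differences of that size unresolved.

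**Figure D4:**
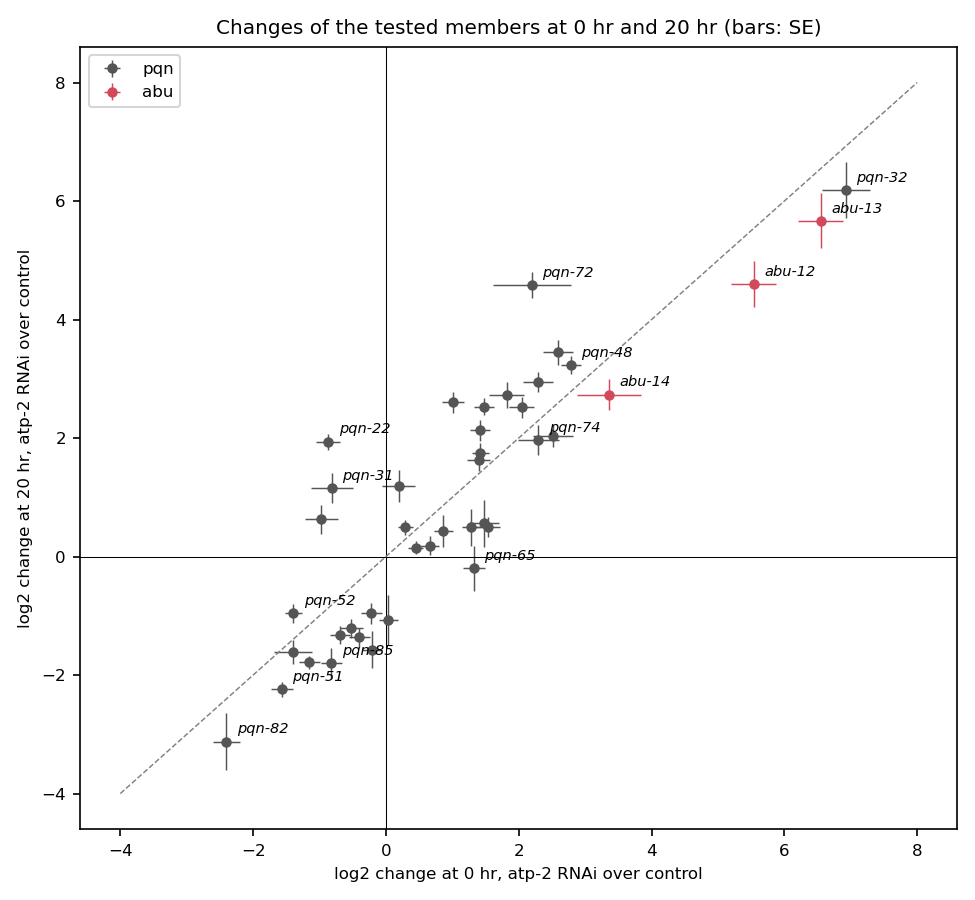
Log2 change under atp-2 RNAi at 0 hr (x) and 20 hr (y) for the 41 members tested at both times, with bars of 1 SE, abu genes in red and pqn genes in grey. The dashed line marks equal changes. The members abu-12, abu-13 and pqn-32 lie far out at the upper right, pqn-82 at the lower left, and pqn-22, pqn-31 and pqn-60 at the upper left.

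In the 24 hr pair most members were alike. Of 55 members counted, 2 were at least 2-fold higher under RNAi and 4 lower, where 6.41% and 4.1% of all 12548 genes were. Those lower were pqn-72 (37.3 TPM against 144 TPM in the control), abu-6 (0.393 TPM against 2.81 TPM), abu-12 (36.9 TPM against 98.9 TPM) and pqn-31 (1.74 TPM against 5.60 TPM), and those higher were pqn-92 and pqn-48. In the 36 hr pair, 3 of 56 members were higher and 12 lower, where 7.57% and 5.56% of all 12416 genes were. The abu genes accounted for 5 of the 12 (abu-1, abu-11, abu-12, abu-13 and abu-14) among 11 counted, and their median log2 ratio was -0.87 against 0.15 for all genes. The largest of these ratios were those of abu-11, at 1.58 TPM against 11.3 TPM, and abu-14, at 12.4 TPM against 56.6 TPM. Among the pqn genes, pqn-63 stood at 0.790 TPM against 12.3 TPM, pqn-74 at 6.08 TPM against 38.1 TPM and pqn-54 at 1.27 TPM against 7.62 TPM. The 12 members, except pqn-13 and pqn-26, were among those highest in the 48 hr control. The exceptions upward were pqn-60 (6.49 TPM against 0.816 TPM), pqn-98 (2.205 TPM against 0.0752 TPM) and pqn-92.

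Genes of related pathways and tissues, listed by name, give the setting of these changes. Of 20 genes of the unfolded protein response of the endoplasmic reticulum, 7 were higher and 6 lower at 0 hr (median log2 change 0.01), and 8 were higher and 10 lower at 20 hr (-0.25). In the late pair, where 11 abu genes were lower, 1 of the 20 was at least 2-fold higher and none was lower. The chaperone gene hsp-4, the worm BiP gene best known as a marker of that response, fell at 0 hr by 0.97 (SE 0.14, adjusted p = 0.000361 by limma) and at 20 hr by 1.75 (SE 0.20, adjusted p = 6.7e-05 by limma) on the log2 scale. The protein disulfide isomerase gene pdi-2 rose by 2.32 at 0 hr (SE 0.37, adjusted p = 0.000591 by limma) and by 1.87 at 20 hr (SE 0.61, adjusted p = 0.0206 by limma). At both times abu-12, abu-13 and abu-14 rose, pdi-2 rose, hsp-4 fell and the list as a whole was divided. Any link between the abu genes and this response was not tested.

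Of 23 genes of the body cuticle and molting, 22 were higher at 0 hr (median log2 change 6.14) and 22 at 20 hr (4.43), as were all 8 molting regulators at 0 hr (3.39) and 7 at 20 hr (1.75). Their summed levels ran beside those of abu-12, abu-13, abu-14 and pqn-32 at these times. For the body cuticle list these were 84.1 to 117 TPM in the 0 hr controls, 5202 and 8634 TPM under RNAi, 47.1 to 54.1 TPM in the 20 hr controls and 1031 and 3853 TPM under RNAi. In the late pair the lists went other ways, with 13 body cuticle genes at least 2-fold higher and 2 lower beside 11 abu genes lower. They also parted in the 24 hr pair, where 14 of the 23 body cuticle genes were higher and 2 lower. Of 10 abu genes counted there, none was higher and 2 were lower. In the 36 hr pair, 9 of the 23 body cuticle genes and 5 abu genes were lower and none of either was higher. The list of 58 other genes of the pharyngeal cuticle had 10 higher and 6 lower of 23 tested at 0 hr, 11 higher and 2 lower of 14 tested at 20 hr, 4 higher and 7 lower of 19 counted in the 36 hr pair, and 4 higher and 13 lower of 21 counted in the late pair (median log2 ratio -1.65). Within it are 15 idpa, idpb and idpc genes, named for intrinsically disordered proteins of that cuticle. Of these, 4 of 4 tested were higher at 0 hr and at 20 hr. Each stood below 1 TPM in every control of those times, so the direction is largely set by the filter. In both the 36 hr and the late pair 7 of 9 counted were lower. Those lower in the late pair stood at 0.454 TPM or less at 54 hr of RNAi, so they entered that pair through the 48 hr control. Of the 29 fipr genes of the list, 4 were higher and 5 lower of 12 tested at 0 hr, and 6 higher and 1 lower of 8 at 20 hr. In the 36 hr pair 4 were higher and none lower of 7, and in the late pair 4 higher and 1 lower of 6. At 20 hr fipr-23, fipr-24 and fipr-26 stood at 0.621 TPM or less in every control, and the lower fipr-13 at 0.255 TPM or less under RNAi. Each of them passed the filter through the other group, so those directions are largely set by the filter. Of the 12 nspb genes, 1 was higher and 1 lower of 5 tested at 0 hr, and 5 of 5 were lower in the late pair. These 5 stood at 0.0930 TPM or less at 54 hr of RNAi, so they entered through the 48 hr control and their direction was set by the filter.

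Of 6 pharyngeal muscle genes, 3 were higher and 1 lower at 0 hr, 4 higher and 1 lower at 20 hr, and 5 at least 2-fold lower in the late pair (median log2 ratio -1.69), where their summed level was 12.9 TPM under RNAi against 58.9 TPM. It lay between 25.1 and 80.1 TPM in all other libraries, so the 54 hr RNAi library was the lowest of the 16 for pharyngeal muscle genes, none of which was listed at 0. Their part in the abu result was not tested. For 7 pharyngeal gland genes, 2 of 3 tested were higher at 0 hr and 2 of 2 at 20 hr, and 2 were higher and 1 lower in the late pair. Pharynx transcription factors were higher for 3 of 4 tested at 0 hr and 4 of 4 at 20 hr, and 1 was higher in the late pair. Epidermis markers had 3 higher and 1 lower of 4 at 0 hr, and 2 higher and 1 lower at 20 hr. Sperm markers had 7 of 7 lower at 0 hr, and 1 higher of 2 tested at 20 hr. Their summed level at 0 hr was only 4.21 and 3.82 TPM under RNAi, so several passed the filter through the controls. In the late pair, beside the lower abu genes, 7 of 8 sperm markers (median log2 ratio -4.16) and 13 of 13 germline and oocyte markers (-2.81) were at least 2-fold lower, and 7 of 10 neuron markers were higher. The summed sperm level there was 3.70 TPM under RNAi against 207 TPM, with none of the markers at 0, and that of germline and oocyte 31.03 TPM against 360 TPM, with 1 and none at 0. Their part in the abu result was not tested. Intestine markers had 5 higher and 1 lower of 8 at 0 hr and 8 higher at 20 hr. Body wall muscle markers had 6 and 8 of 8 higher, and neuron markers 10 and 9 of 10 higher, at 0 hr and 20 hr.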

How the data were processed

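RNA was extracted from whole worms with GENEzol and libraries were made, per the labels' protocols, using a SureSelect kit that keeps the strand. The submitters' processing notes name bcl2fastq 2.20, TopHat and Cufflinks and the build WBcel235. Not given in the sources used here are the program behind the values, its strand setting and its annotation release. TPM were deposited by the authors for each library, per the file headers, in separately made tables for 0 hr, 20 hr and each late pair. A value of 0.0001, the lowest listed, was set to 0.

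The changes at 0 hr and 20 hr were fitted across all genes by limma 3.58.1 (R 4.3.3), with an intensity trend, from log2(TPM + 1) of genes whose mean in the table reached 1 TPM. The interaction was fitted over 10 libraries with the same filter. P-values were adjusted by Benjamini-Hochberg over all genes tested. Fold changes on this scale understate the change of low genes, and folds given without a log are ratios of mean TPM. Unreplicated pairs were counted at 2-fold with no test. The script was tested on simulated data. The tables were read and summarised with Python 3.11.15, numpy 2.4.6 and pandas 2.3.3, and plotted with matplotlib 3.10.9.

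The members and the 13 gene lists were chosen with earlier results of these data known. All gene names were found except 1 of the 9 intestine markers. Values in full were given for the 6 members with the highest mean, the 8 largest changes past the threshold in each direction at 0 hr and 20 hr, and the 5 largest in each direction for the interaction and in each pair. Of each gene list, up to 2 genes with the largest change past the threshold at 0 hr could be named, as pdi-2 was. The genes pqn-24, pqn-41, pqn-44, pqn-57, abu-4, abu-9, abu-10 and hsp-4 are described beyond this rule and were chosen after their values were seen. Grouping of the members by cysteine content and by protein identity was not made here. As alternatives the pseudocount was 0.1 or 0.01, the filter was dropped or raised to 5 TPM, library medians were equalised, values were quantile normalized, replicate numbers entered as a block, both times shared 1 fit of 10 libraries, the trend was dropped, and single libraries were left out.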

Additional observations from a re-analysis of the deposited data

Results flagged for a closer look

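The change under atp-2 RNAi differed between 0 hr and 20 hr by the interaction test for the 10 members below, which are the 5 largest in each direction. Values are the log2 change at 20 hr minus that at 0 hr, from limma over 10 libraries. Upward, it was 2.81 for pqn-22, 2.39 for pqn-72, 1.97 for pqn-31, 1.95 for pqn-8 and 1.60 for pqn-60. Downward, it was -1.52 for pqn-65, -1.36 for pqn-20, -1.03 for pqn-15, -0.98 for pqn-85 and -0.96 for pqn-27. In pqn-22 the direction itself differed between the times. In pqn-31 and pqn-60 it also did as reported, but calls at single times ended under several alternatives, and their changes at 20 hr turned after quantile normalization. For pqn-22, pqn-31, pqn-8, pqn-60 and pqn-15 the interaction stayed past the threshold in all alternatives run that could test it. For the others it did not. After quantile normalization it was lost for pqn-27, pqn-72, pqn-20 and pqn-85. With no filter, and with certain libraries left out, it was lost for pqn-72, pqn-65, pqn-20 and pqn-85, with 7 of the 10 libraries each ending it for pqn-85 and 6 for pqn-65. Among these, pqn-65, pqn-20, pqn-85 and pqn-27 stood lower in control replicate 1 of 20 hr than in the other controls of that time, and the part of that library in the interaction was not tested beyond leaving it out.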

How the results depend on the processing

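Counts of members called higher were 27 at 0 hr (23 to 28 with 1 library left out) and 25 at 20 hr (21 to 25), and counts called lower were 13 (9 to 12) and 12 (11 to 13). With no filter 40 members were higher at 20 hr, as more were tested, and 16 were with a mean of at least 5 TPM, as fewer were. For the interaction, 9 were upward (6 to 12) and 10 downward (2 to 12). The downward count was 5 with no filter and 4 after quantile normalization, and with 1 library left out it was lowest, at 2, without RNAi replicate 2 of 0 hr. It was 3 without control replicate 2 of 0 hr, 4 without RNAi replicate 2 of 20 hr and 5 without control replicate 2 of 20 hr. At 24 hr, 1 member was higher after a median shift (2 as reported) and 2 were lower with a mean of at least 5 TPM (4 as reported). At 36 hr, 5 were higher with a pseudocount of 0.1 and 1 with a mean of at least 5 TPM (3 as reported), and 7 were lower with the latter (12 as reported). Directions turned for pqn-20 at 0 hr (0.12 after quantile normalization), pqn-59 at 0 hr (-0.11 after a median shift, -0.00856 after quantile normalization, and from -0.087, without control replicate 2, to 0.104 with 1 library left out, with -0.0102 without RNAi replicate 2), pqn-31 (-0.0113) and pqn-60 (-0.48) at 20 hr after quantile normalization, and pqn-65 at 20 hr (0.46 after quantile normalization, and from -0.616 to 0.0625, without control replicate 3, with 1 library left out). Only the change of pqn-60 was past the threshold on both sides of its turn. The cause was not tested. The named members' values kept their direction and their side of the threshold, or moved by less than 1.5 times where there was no test, in 1014 cases, lost a call in 71, gained 1 in 4 and moved further without a test in 9. The interaction values and single ratios of the pairs were recomputed as alternatives chosen after seeing the data.

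With the replicate number as a block, 27 members were higher and 11 lower at 0 hr, 24 higher and 13 lower at 20 hr, and 9 upward and 10 downward in the interaction. Same-numbered libraries did not deviate together (correlations of 0.03 and -0.05 at 0 hr, -0.07 and 0.01 at 20 hr), so the numbers were not taken to pair the libraries. Depth is unknown, and values near 0 may be failed estimates.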
